A study of Mus musculus with 6 samples.

Results

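The genes described are 9 enzymes and enzyme subunits of the mitochondrial tricarboxylic acid cycle: Cs, Idh3a, Idh3b, Idh3g, Ogdh, Dlst, Sucla2, Fh1 and Mdh2. They were taken by gene identifier from the 29370 genes of the deposited gene count matrix, together with their 59 transcripts in the transcript tables of the same libraries. RNA was measured in 2 groups of cultured mouse CD8+ T cells, which find and kill infected or malignant cells. The palmitate group (3 libraries) was kept for 48 h in T cell medium with 100 µM palmitate, a saturated long-chain fatty acid, and the control group (3 libraries) was kept for 48 h without it. All cells came from wild-type mice, with pancreas, spleen and lymph nodes as their sources. The sources used here do not say whether a vehicle was added to the control medium, nor the strain, sex and age of the mice, nor whether each library had an animal or culture of its own.

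The cycle takes in acetyl groups made from fatty acids, pyruvate and some amino acids, oxidises them to carbon dioxide and passes the electrons to the respiratory chain. Its intermediates also leave for the synthesis of lipids, amino acids and haem, which dividing T cells draw on. Citrate synthase opens the cycle, isocitrate dehydrogenase and 2-oxoglutarate dehydrogenase carry out its oxidative decarboxylations, and fumarase and malate dehydrogenase close it.

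The gene matrix held 16724588 to 24777611 counts per palmitate library and 26042768 to 29362276 per control library, with the fewest in palmitate library 3. Summed markers of CD8 T cells ranged from 1703 to 1926 CPM (counts scaled to a common library size) in palmitate libraries and from 1167 to 1480 CPM in control libraries, and 7 of the 8 markers rose. Markers listed for other cells were lower in summed level, and some sums moved with the groups. The sums do not show which genes of a list carry the reads. Whether the CD8 T cells themselves express some of these genes was not tested. Summed B cell markers were at 40.7 to 64.1 CPM with palmitate and 33.7 to 39.3 CPM in control, with 1 of 7 tested risen; plasma cell markers were at 483.0 to 541.1 CPM with palmitate and 408.4 to 483.7 CPM in control, with 2 of 7 risen. Fibroblast and endothelial markers were at 46.7 to 63.7 CPM with palmitate and 35.5 to 41.9 CPM in control, and NK cell markers at 142.9 to 161.9 CPM with palmitate and 167.1 to 185.3 CPM in control, with 0 of 3 called. Erythroid markers were at 4.41 to 6.64 CPM with palmitate and 1.09 to 2.03 CPM in control, and those of macrophages and dendritic cells at 5.61 CPM or more with palmitate and at most 5.57 CPM in control. Those of CD4 T cells stayed under 1.38 CPM, and of pancreatic acinar cells under 2.87 CPM, in every library. Ins1, Ins2, Pnlip, Ctrb1, S100a8, S100a9, Retnlg, C1qa and C1qb, defining markers of pancreatic, neutrophil and macrophage cells, had 0 counts in every library. The part of these other cells in the results on the cycle was not tested, and in bulk RNA fewer cells of a type and less RNA per cell cannot be told apart.

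With palmitate, 5 of the 9 cycle genes had less RNA, and none had more that passed the test. The falls were in Idh3a, Idh3b, Ogdh, Dlst and Sucla2, 5 of the 6 members that act between isocitrate and succinate, and they ranged from 13.9% for Idh3b (gene matrix) to 31.3% for Idh3a (transcript sums). Cs, Idh3g, Fh1 and Mdh2 did not pass. In the gene matrix 8 of the 9 genes could be tested, of which 4 fell and 0 rose, and the median log2 fold change, palmitate over control, was −0.16, against 0.02 over all genes. The test, edgeR's quasi-likelihood test (Benjamini-Hochberg adjusted p under 0.05), called 22.9% of all 12068 genes tested, with 11.7% of the tested genes lower and 11.1% higher with palmitate. Of genes outside the 9 that also act between isocitrate and succinate, Dld fell. Idh2 (log2 fold change 0.17, adjusted p = 0.157), Suclg1 (−0.30, adjusted p = 0.0859) and Suclg2 (0.06, adjusted p = 0.634) were not called in the matrix. With upper-quartile scaling the called genes split into 1651 higher and 1052 lower, against 1343 higher and 1416 lower with edgeR's default TMM scaling, and 2 cycle genes fell, Dlst and Sucla2, against 8.72% of all genes lower and 13.7% higher.

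Idh3a was tested only in sums of its transcript counts. The matrix listed it at 0 in 5 libraries and at 186 counts in palmitate library 2, and held 0.71% of the 26072 transcript reads of the gene. Those 186 counts belonged to transcript Idh3a-201, whereas the transcript tables gave the reads mostly to Idh3a-204 and Idh3a-205. Of the other members, Dlst had 63.9% of its transcript reads in the matrix and the rest had 98.3% or more. Each member was therefore also tested in transcript sums, in which 25.8% of 13088 genes were called and 13.5% were called lower. All 9 genes could be tested there, and 5 fell and 0 rose, with a median log2 fold change of −0.23, against 0.02 over all genes.

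**Figure D1:**
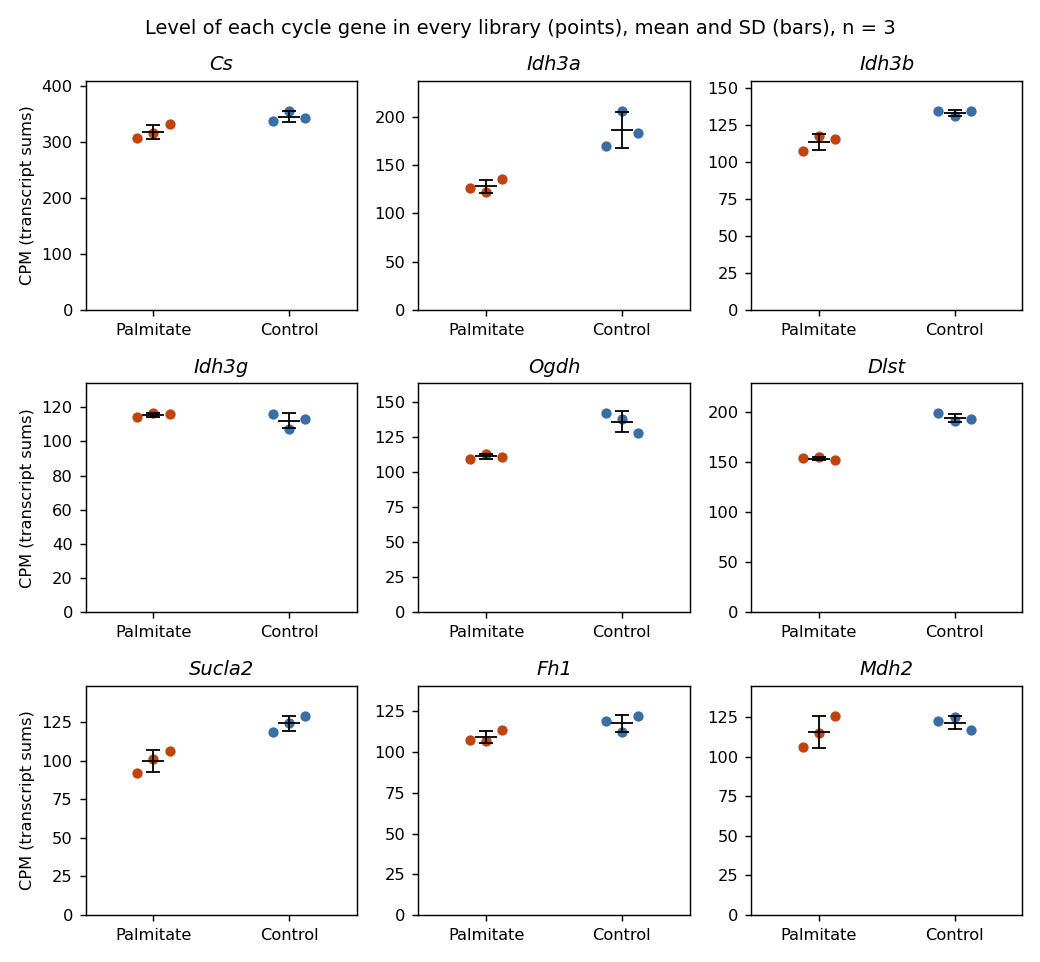
CPM of each of the 9 cycle genes in transcript sums, on an axis that starts at 0, with palmitate libraries on the left and control libraries on the right of each panel; points are libraries and bars are mean and SD, n = 3. Palmitate libraries lie wholly below control libraries for Cs, Idh3a, Idh3b, Ogdh, Dlst and Sucla2, and the groups overlap for Idh3g, Fh1 and Mdh2.

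Citrate synthase, encoded by Cs, joins acetyl-CoA to oxaloacetate. Cs had 334.2, 342.8 and 357.9 CPM in palmitate libraries 1 to 3, against 362.9, 381.3 and 366.4 CPM in control libraries 1 to 3. Every palmitate library lay below every control library, but the log2 fold change of −0.10 ± 0.07 (SE) did not pass (adjusted p = 0.296). Non-overlap of this kind was found for 21.2% of all genes tested in the matrix, in the direction of lower with palmitate.

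NAD-dependent isocitrate dehydrogenase, which makes 2-oxoglutarate inside mitochondria, is built of a catalytic subunit (Idh3a), a further structural subunit (Idh3b) and a regulatory subunit (Idh3g). Idh3a had 126.4, 122.6 and 135.5 CPM in the palmitate libraries, against 169.7, 206.1 and 183.7 CPM in the control libraries, in transcript sums. The highest palmitate library was well under the lowest control library. The mean was 128.2 ± 6.61 CPM with palmitate and 186.5 ± 18.4 CPM in control (SD, n = 3 each), a log2 fold change of −0.54 ± 0.09 (SE, adjusted p = 0.00359). The call held in all 6 fits that each left out 1 library, with adjusted p between 0.00149 and 0.0223. Where the sums were corrected for the mean length of the transcripts, the log2 fold change was −0.57 (adjusted p = 0.00518).

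Idh3b had 118.8, 130.4 and 126.8 CPM in palmitate libraries and 147.7, 142.8 and 145.9 CPM in control libraries. The groups did not overlap, and the control libraries were close together. Idh3b fell by a log2 fold change of −0.22 ± 0.06 (adjusted p = 0.0458), the call nearest to the threshold among the cycle genes. It was lost in each of the 6 fits without 1 library (adjusted p 0.0628 to 0.139) and with upper-quartile scaling (adjusted p = 0.119). In transcript sums the value was −0.23 (adjusted p = 0.033), called in 1 of 6 such fits.

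Idh3g did not pass. It had 126.4, 128.5 and 127.3 CPM in palmitate libraries and 127.2, 116.5 and 123.1 CPM in control libraries, which overlapped. Its log2 fold change was 0.06 ± 0.06 (adjusted p = 0.525), and it was the sole member with a value above 0 in both fits.

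On a length-corrected scale the ratios of the 3 subunit RNAs lay apart between the groups. The 3 ratios share their terms and are not independent. TPM (abundance per length as given by Salmon, the program that assigned reads to transcripts, summed over a gene's transcripts) of Idh3a divided by that of Idh3g was 0.77, 0.74 and 0.78 in palmitate libraries and 1.06, 1.36 and 1.12 in control libraries. Summed over all transcripts, Idh3a was thus below Idh3g in every palmitate library and above it in every control library. The Idh3a to Idh3b ratio averaged 0.68 ± 0.04 with palmitate and 0.84 ± 0.06 in control, and the Idh3b to Idh3g ratio 1.12 ± 0.04 with palmitate and 1.41 ± 0.10 in control (SD, n = 3 each). In each of the 3 ratios the palmitate libraries lay below the control libraries, with a two-sided exact permutation p of 0.10, the smallest that 3 against 3 allows, and 0.133 adjusted over the 4 ratios computed. These sums include transcripts annotated for nonsense-mediated decay (the removal of RNAs with a premature stop), of which Idh3a-204 made up 61.6% of Idh3a TPM in both groups. In coding transcripts alone Idh3a was far below Idh3g in both groups, at 24.3 ± 1.23 TPM with palmitate and 31.0 ± 0.37 TPM in control, against 103.2 ± 1.76 TPM with palmitate and 98.0 ± 3.07 TPM in control for Idh3g (SD, n = 3 each). The coding Idh3a to Idh3g ratio was 0.22, 0.25 and 0.23 in palmitate libraries and 0.30, 0.33 and 0.31 in control libraries, so the groups were apart on this scale as well. The coding Idh3b to Idh3g ratio averaged 0.81 ± 0.05 with palmitate and 0.97 ± 0.01 in control, apart too. Unlike the ratio of the sums, it was under 1 in both groups.

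2-oxoglutarate dehydrogenase turns 2-oxoglutarate into succinyl-CoA, in a complex whose oxidising component is encoded by Ogdh and whose succinyl-transferring core is encoded by Dlst. Ogdh had 121.5, 125.2 and 121.9 CPM in palmitate libraries, against 156.0, 150.7 and 139.0 CPM in control libraries. The groups were apart, and the 3 palmitate values lay within a narrow band. Ogdh fell, at 122.9 ± 2.00 CPM with palmitate and 148.5 ± 8.69 CPM in control, a log2 fold change of −0.27 ± 0.07 (adjusted p = 0.0252). The call was kept in 1 of the 6 fits without 1 library (adjusted p 0.037 to 0.0808), and not with upper-quartile scaling (adjusted p = 0.0595). In transcript sums it was −0.29 (adjusted p = 0.0159) and was kept in 5 of 6.

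Dlst had 153.7, 155.0 and 151.4 CPM in palmitate libraries and 198.3, 190.5 and 192.5 CPM in control libraries, in transcript sums. The values within each group were close and the groups far apart. Dlst fell by a log2 fold change of −0.34 ± 0.06 (adjusted p = 0.0067), kept in all 6 fits without 1 library. The matrix, with its part of the reads, gave −0.34 ± 0.07 (adjusted p = 0.015), kept in 4 of 6. The TPM ratio of Ogdh to Dlst overlapped between groups, at 0.49 ± 0.04 with palmitate and 0.46 ± 0.02 in control (exact permutation p = 0.3).

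Sucla2 encodes the ATP-forming beta subunit of succinyl-CoA synthetase, the step of the cycle that makes a nucleoside triphosphate directly. Sucla2 had 101.4, 111.8 and 116.2 CPM in palmitate libraries and 130.2, 135.4 and 140.2 CPM in control libraries. The groups did not overlap. Sucla2 fell, by a log2 fold change of −0.30 ± 0.07 (adjusted p = 0.0241), kept in 2 of the 6 fits without 1 library (adjusted p 0.0204 to 0.1). In transcript sums it was −0.32 (adjusted p = 0.0168), kept in 4 of 6.

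Fumarase (Fh1) hydrates fumarate to malate, and malate dehydrogenase (Mdh2) oxidises malate to oxaloacetate. Fh1 had 118.6, 117.7 and 124.4 CPM in palmitate libraries and 130.5, 122.0 and 132.9 CPM in control libraries, a log2 fold change of −0.10 ± 0.07 (adjusted p = 0.316). Mdh2 had 116.0, 125.1 and 137.2 CPM in palmitate libraries and 133.5, 134.7 and 126.0 CPM in control libraries, a log2 fold change of −0.06 ± 0.08 (adjusted p = 0.609). Both overlapped between groups, and the highest Mdh2 value of all was in a palmitate library. In transcript sums 6 of the 9 members had every palmitate library below every control library, against 22.1% of all genes, and in the matrix 5 of 8 did.

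**Figure D2:**
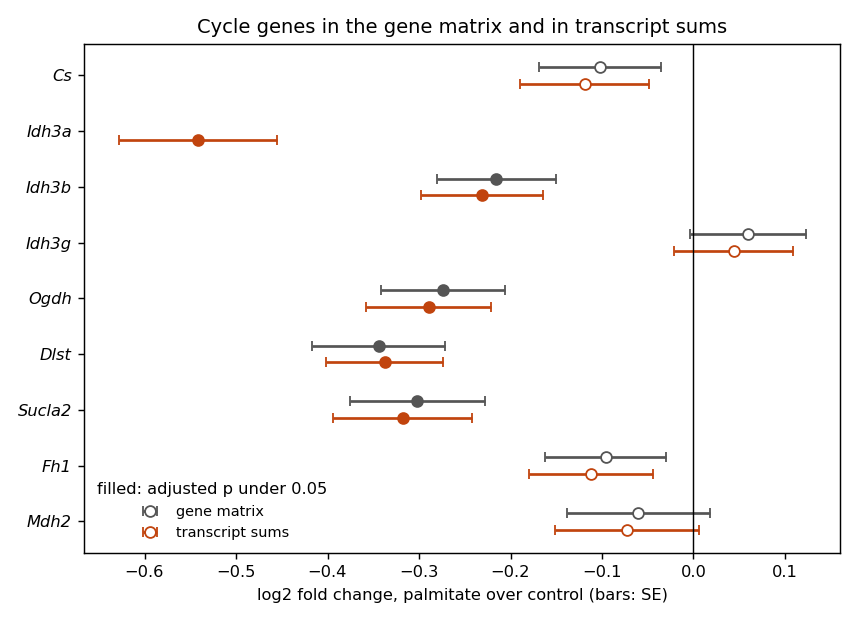
Log2 fold change, palmitate over control, with its SE for each cycle gene, in the gene matrix (grey) and in transcript sums (red); filled points have an adjusted p under 0.05. Idh3a, at −0.54, lies farthest from 0 and has no matrix value; Idh3g lies to the right of 0 in both.

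Across the libraries, palmitate library 1 had the lowest CPM of the 6 for 5 of the 9 genes, and no control library was the lowest except for 1 gene. Without control library 3 the matrix called 0 cycle genes, at 690 genes called in all. It called 1 when palmitate library 1 (1443 genes in all), palmitate 2 (1651), palmitate 3 (1304) or control 2 (1353) was left out. Without control library 1 it called 3, at 3433 genes in all. Among these fits the count of cycle genes was thus lowest and highest where that of all genes was. Whether it changed by more than the count of all genes was not tested. With transcript sums the fits called 3 to 5 cycle genes, at 1305 to 4181 genes in all. Those that called 3 lacked palmitate 1, palmitate 3 or control 3. Each of the 9 genes had at least 1947 reads in every library in the sums.

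TPM summed over all transcripts of a gene gave an order of the levels. In control libraries Idh3b was highest at 156.5 ± 6.03 TPM, then Cs (151.7 ± 3.54), Fh1 (147.3 ± 4.15), Mdh2 (133.9 ± 4.09), Idh3a (131.0 ± 13.1), Dlst (111.5 ± 8.50), Idh3g (111.3 ± 4.31), Sucla2 (85.1 ± 2.16) and Ogdh (51.6 ± 2.06; SD, n = 3). Neighbours whose libraries overlapped were Idh3b and Cs, Cs and Fh1, Mdh2 and Idh3a, and Dlst and Idh3g. In palmitate libraries Cs was highest at 144.8 ± 1.63 TPM, then Fh1 (136.6 ± 4.77), Idh3b (134.8 ± 6.24), Mdh2 (127.8 ± 3.60), Idh3g (120.1 ± 2.51), Dlst (91.5 ± 6.42), Idh3a (91.4 ± 3.41), Sucla2 (72.0 ± 2.90) and Ogdh (45.1 ± 2.42). There Fh1 overlapped Idh3b, Idh3b overlapped Mdh2, and Dlst overlapped Idh3a. Idh3a stood 7th of 9 with palmitate and 5th in control, and Idh3g 5th with palmitate and 7th in control. These sums include short and decay-annotated transcripts, and the order differed in coding transcripts alone. There Cs was highest in both groups, at 142.5 TPM with palmitate and 149.2 TPM in control. Idh3a was lowest in both, at 24.3 TPM with palmitate and 31.0 TPM in control. Idh3b, at 94.7 TPM in control, was there below Idh3g, at 98.0 TPM. In the sums over all transcripts Idh3g was higher in every palmitate library (118.2 to 122.9 TPM) than in every control library (107.0 to 115.6 TPM), an order that its CPM did not show. The TPM are not TMM-scaled, whereas the CPM are. Per length on TMM-scaled library sizes, Idh3g averaged 117.0 with palmitate and 113.9 in control. Fh1, whose CPM overlapped, was lower in every palmitate library (133.7 to 142.1 TPM) than in every control library (143.2 to 151.5 TPM). Mdh2 was the sole member whose TPM overlapped between groups, but the share of all genes apart in TPM was not counted.

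**Figure D3:**
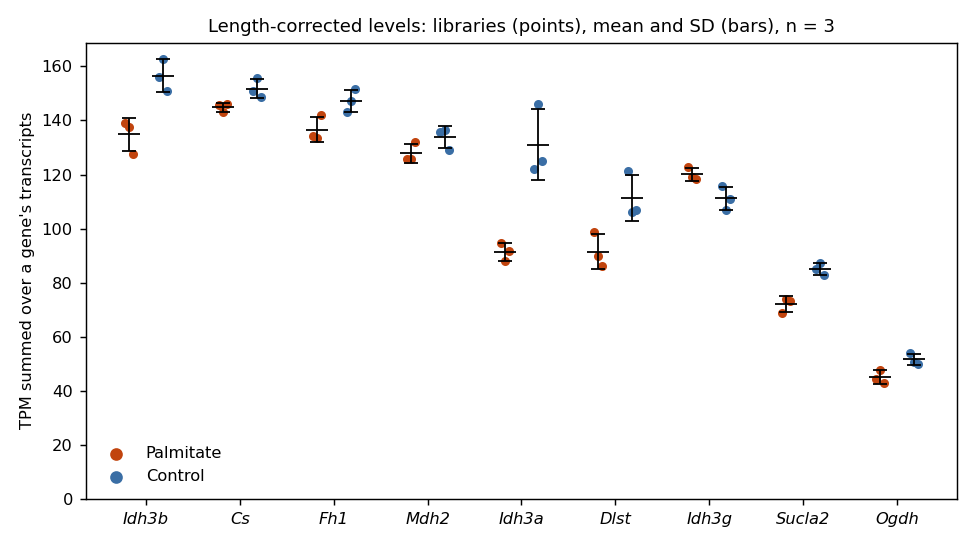
TPM of the 9 cycle genes, summed over each gene's transcripts, with palmitate (red) left of control (blue) for each gene; points are libraries, bars are mean and SD, n = 3, and genes run from the highest to the lowest control mean. Idh3a has the widest gap between the groups, and Idh3g is the one gene with the palmitate libraries on top.

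The transcript tables gave at least 1 read to 55 of the 59 transcripts, and 18 held 5% or more of their gene's reads. Cs, Idh3b and Idh3g were each made up mainly of 1 coding transcript, with 98.3%, 88.6% and 90.3% of the reads. Salmon divides reads that fit several transcripts of a gene, so values of single transcripts are less certain than those of genes. Of the 18, 17 had a lower value with palmitate, and 10 had every palmitate library below every control library, against 11.6% of all 39731 transcripts tested. The sets differ in abundance: the 18 each averaged 5 CPM or more, a level that 15453 transcripts reached. The median log2 fold change of the 18 was −0.31, against 0.05 over all transcripts. No transcript passed edgeR's test (0 of 39731, or 0% of them); at an unadjusted p under 0.05 there were 6297, with 7 of the 42 tested member transcripts among them. DESeq2, which gave an adjusted p to 24190 transcripts, called 2948 of them (12.2%), with 8.44% lower and 3.75% higher. Of the 28 member transcripts with an adjusted p there, it called 6 (21.4%), all lower: Dlst-201, Dlst-205, Idh3a-204, Idh3a-205, Ogdh-201 and Sucla2-203. In none of the 18 did the share of the gene's reads separate the groups, and the exact permutation p was 0.2 at the lowest.

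**Figure D4:**
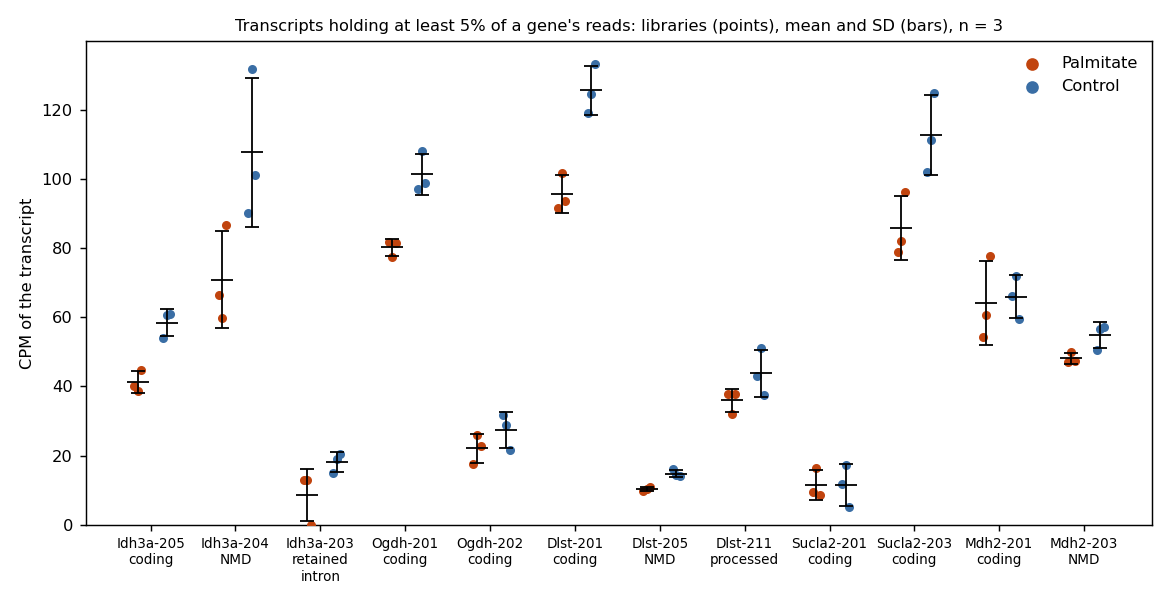
CPM of the transcripts that hold at least 5% of the reads of Idh3a, Ogdh, Dlst, Sucla2 and Mdh2, with palmitate (red) left of control (blue) and the annotated kind under each name (NMD, nonsense-mediated decay); points are libraries, bars are mean and SD, n = 3. Both main transcripts of Idh3a, Idh3a-204 and Idh3a-205, lie lower in every palmitate library than in every control library.

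Most Idh3a reads went to a transcript that carries an early stop. Idh3a-204, which GENCODE M21 marks as a target of nonsense-mediated decay, held 53.9%, 49.4% and 63.9% of the gene's reads in palmitate libraries and 54.7%, 61.3% and 54.2% in control libraries. The coding transcript Idh3a-205 held 32.6 ± 0.46% with palmitate and 31.2 ± 2.58% in control (SD, n = 3 each). Idh3a-205 had 40.1, 38.8 and 44.8 CPM in palmitate libraries against 53.9, 60.6 and 60.8 CPM in control libraries. Its log2 fold change of −0.50 ± 0.10 did not pass edgeR's test over all transcripts (adjusted p = 0.090). Idh3a-205 passed among transcripts of at least 5 CPM (adjusted p = 0.035), where 1107 of all 15453 were called and 1 of 21 member transcripts. Idh3a-204 had 66.4, 59.7 and 86.7 CPM with palmitate and 90.1, 131.8 and 101.2 CPM in control, a log2 fold change of −0.60 ± 0.20 (adjusted p = 0.220). The shares of both transcripts overlapped between groups. The intron-retaining Idh3a-203, had 0 reads in palmitate library 3 and 365 to 619 in the others.

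Idh3a-204 has an added exon of 95 bases (GRCm38 chr9:54592161-54592255, + strand, the 3rd of 12 exons) that ends the reading frame after 37 codons. Reads over this exon were not counted, and the forms differ elsewhere too, at 1812 bases for Idh3a-204 and 2580 for Idh3a-205. The exon is shown for its early stop: the last 15 bases of the exon before are followed by the first bases of the added exon, and the in-frame stop is in capitals.
Idh3a-204: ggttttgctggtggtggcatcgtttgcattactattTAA
The transcript counted in the matrix, Idh3a-201, differs from Idh3a-205 in the annotation by the start of its first exon alone, which is 177 bases shorter (chr9:54586334-54586510), with identical later exons.

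Mdh2 showed a like makeup without a call. Mdh2-201, the coding form, held 55.9 ± 5.04% of the reads with palmitate and 53.7 ± 3.16% in control, and Mdh2-203, annotated for nonsense-mediated decay, 42.4 ± 4.28% with palmitate and 44.8 ± 2.99% in control (SD, n = 3 each). Mdh2-203 lacks an exon of 169 bases (GRCm38 chr5:135783305-135783473, + strand), and its frame stops after 51 codons. The forms, of 1456 bases (Mdh2-201) and 1112 bases (Mdh2-203), differ elsewhere too, and reads over the junction were not counted. The junction of Mdh2-203 is shown with 15 bases before the joint in lower case and 15 after it in capitals.
Mdh2-203: agcacttcggcccagGCTACCTTGGACCGG
Mdh2-203 averaged 48.2 ± 1.59 CPM with palmitate and 54.9 ± 3.69 CPM in control, with the libraries apart by a small gap, while Mdh2-201 overlapped at 54.2 to 77.7 CPM with palmitate and 59.5 to 72.0 CPM in control.

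Ogdh was spread over forms that differ in an interchangeable coding exon. Variants of this exon are known in mammals to set whether the enzyme answers to calcium. Ogdh-201 carries one version (GRCm38 chr11:6316978-6317080, + strand, 103 bases) and Ogdh-202 the other (chr11:6316765-6316855, + strand, 91 bases), each as the 4th of 23 exons. Both are shown with 15 bases of the shared exons on either side in lower case and the exon itself in capitals.
Ogdh-201: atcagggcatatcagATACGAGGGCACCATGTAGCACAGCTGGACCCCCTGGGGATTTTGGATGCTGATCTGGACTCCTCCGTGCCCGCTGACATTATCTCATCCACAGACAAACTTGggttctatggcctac
Ogdh-202: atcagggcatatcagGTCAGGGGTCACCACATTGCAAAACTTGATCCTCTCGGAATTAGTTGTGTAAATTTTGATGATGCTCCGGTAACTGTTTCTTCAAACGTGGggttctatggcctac
Ogdh-201 held 76.3%, 69.3% and 73.3% of the reads in palmitate libraries and 70.3%, 74.9% and 76.2% in control libraries, and Ogdh-202 held 20.1 ± 3.44% with palmitate and 19.9 ± 3.16% in control (SD, n = 3 each). The shares of both forms overlapped between groups. Ogdh-201 had 81.7, 77.4 and 81.5 CPM with palmitate and 97.1, 108.2 and 99.0 CPM in control, apart, and Ogdh-202 had 17.6, 26.0 and 22.9 CPM with palmitate and 31.7, 29.0 and 21.7 CPM in control, overlapping.

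Dlst reads were divided over a coding form, Dlst-201 (63.2 ± 3.07% with palmitate and 64.2 ± 3.38% in control), the noncoding Dlst-211 (23.8 ± 2.36% with palmitate and 22.4 ± 3.25% in control) and Dlst-205, annotated for nonsense-mediated decay (6.86 ± 0.39% with palmitate and 7.56 ± 0.66% in control; SD, n = 3 each). The reads of Dlst-201, such as the 2573 of palmitate library 1, equal the matrix count of the gene in every library. It had 91.5, 101.9 and 93.7 CPM in palmitate libraries and 119.1, 124.7 and 133.2 CPM in control libraries, which were apart, as were those of Dlst-205. Sucla2-203 held 87.2 ± 4.27% of the Sucla2 reads with palmitate and 89.9 ± 4.97% in control, and was lower in every palmitate library (78.9 to 96.2 CPM) than in every control library (102.0 to 125.1 CPM). The minor coding form Sucla2-201 varied within both groups, at 9.49, 16.5 and 8.44 CPM with palmitate and 11.9, 17.3 and 5.24 CPM in control, and the groups overlapped. Idh3b-204, annotated for nonsense-mediated decay, was at 9.35 ± 1.27 CPM with palmitate and 12.2 ± 1.74 CPM in control (SD, n = 3 each), with the libraries apart. The short coding form Fh1-205, with 18.8% of the Fh1 reads, was at 19.1 ± 2.60 CPM with palmitate and 23.8 ± 2.59 CPM in control (SD, n = 3 each), overlapping.

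The RefSeq promoter table (GRCm38.p6; 250 bases before to 50 after a start) held 13 windows of 8 members, and Idh3a was not among them. Both strands were searched for NRF1 (GCGCATGCG), ERR (TCAAGGTCA), E-box (CACGTG), ETS (CCGGAAGT) and CRE (TGACGTCA) motifs. ERR was in 0 of the 13 windows and in 0.42% of all 32851 windows. Ogdh had 6 of the 13 windows and the other 7 members 1 each, so matches in several Ogdh windows belong to 1 gene. NRF1 was in 2 windows, both of Ogdh, and in 1.75% of all, the E-box in 3 windows, again of Ogdh, and in 7.15% of all, and ETS in 1 window, of Dlst, and in 3.89% of all. CRE was in 4 windows and in 1.79% of all; 3 were of Ogdh, which fell, and 1 of Mdh2, which was not called. A match describes letters, not binding. The 250 bases before the start are shown for these, with CRE in capitals, from windows at chr11:6291347-6291646 (Ogdh, + strand) and chr5:135778399-135778698 (Mdh2, + strand).
Ogdh promoter: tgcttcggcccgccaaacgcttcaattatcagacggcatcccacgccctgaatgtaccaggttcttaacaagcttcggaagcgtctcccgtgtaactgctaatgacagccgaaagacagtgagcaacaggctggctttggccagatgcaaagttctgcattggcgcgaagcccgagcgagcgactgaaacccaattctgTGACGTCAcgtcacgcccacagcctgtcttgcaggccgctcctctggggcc
Mdh2 promoter: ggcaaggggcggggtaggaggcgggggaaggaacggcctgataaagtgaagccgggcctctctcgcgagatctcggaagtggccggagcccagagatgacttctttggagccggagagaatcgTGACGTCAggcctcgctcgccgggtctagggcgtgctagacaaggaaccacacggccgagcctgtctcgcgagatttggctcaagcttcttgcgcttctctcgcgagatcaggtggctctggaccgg

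Around the 9 enzymes, 47 genes of the cycle and its feeders were listed, of which 45 could be tested in the matrix. In this list 1 gene rose and 8 fell (17.8% of the 45, against 11.7% of all genes lower and 11.1% higher), 33 had a value under 0, and the median log2 fold change was −0.18, against 0.02 over all genes. With the replicate numbers as a block 1 rose and 14 fell (31.1%, against 16.6% of all genes lower and 16.5% higher), and with DESeq2 1 rose and 13 of 46 fell (28.3%, against 14.6% of all genes lower and 11.2% higher).

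Among genes whose products work with those above, Dld, the shared dihydrolipoyl dehydrogenase of the 2-oxoglutarate and pyruvate dehydrogenase complexes, had a log2 fold change of −0.54 ± 0.14 and fell (adjusted p = 0.0291), a call kept in 1 of the 6 fits without 1 library. Lias, which makes the lipoyl group that Dlst carries, fell with −0.34 ± 0.08 (adjusted p = 0.0183), and Pdha1, of the pyruvate dehydrogenase complex, with −0.34 ± 0.08 (adjusted p = 0.0191). The call of Lias was kept in 3 of 6 fits and that of Pdha1 in 2. Sdhd, a membrane anchor of succinate dehydrogenase, fell with −0.24 ± 0.07 (adjusted p = 0.0376, kept in 0 of 6 fits). Of the 4 succinate dehydrogenase subunit genes it was the one that passed.

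Some genes that feed the cycle or drain it also fell, while 36 of the 45 tested genes of the list were not called. Slc25a13, a mitochondrial aspartate and glutamate carrier, had 41.4, 39.0 and 42.1 CPM in palmitate libraries and 70.7, 66.6 and 72.0 CPM in control libraries. The groups were far apart, at a log2 fold change of −0.77 ± 0.08 (adjusted p = 0.00226), kept in 6 of 6 fits. Me2, a mitochondrial malic enzyme, fell with −0.35 ± 0.08 (adjusted p = 0.0164, kept in 3 of 6 fits), and Me1, its cytosolic counterpart, with −1.53 ± 0.40 (adjusted p = 0.0291, kept in 1 of 6 fits) at a low level of 0.31 ± 0.09 CPM with palmitate and 0.89 ± 0.26 CPM in control. Me3, also a mitochondrial malic enzyme, was not called (−0.19, adjusted p = 0.681).

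**Figure D5:**
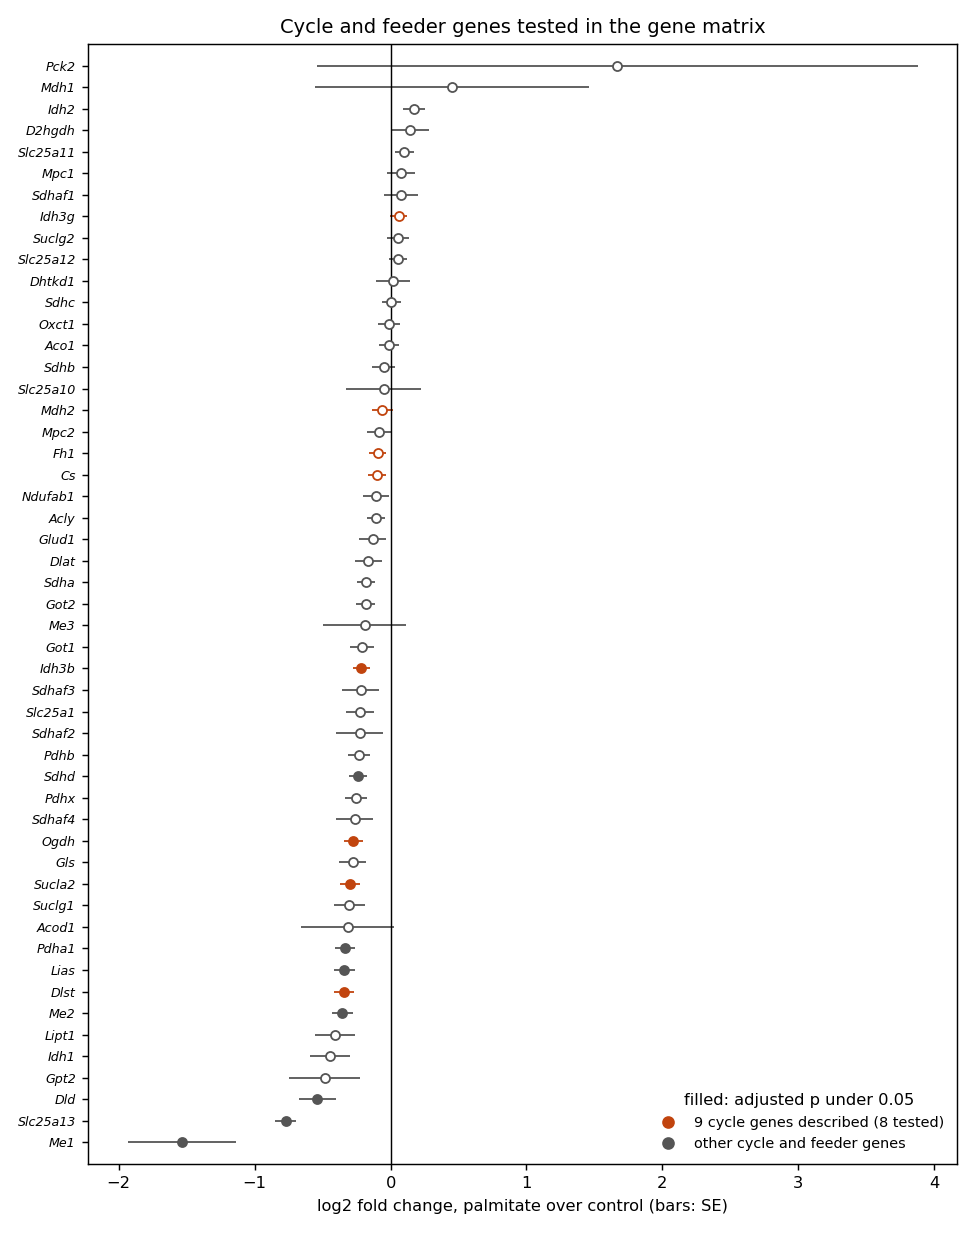
Log2 fold change, palmitate over control, with its SE in the gene matrix for the 8 tested cycle genes described (red) and 43 other cycle and feeder genes (grey), from highest at the top to lowest; filled points have an adjusted p under 0.05. All filled points shown lie left of 0, and Slc25a13 and Me1 stand at the low end.

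The 5 genes whose CPM ran most like the mean of the members' standardised values over the 6 libraries, out of 5221 genes with a mean log2 CPM of at least 5 in transcript sums, were Ankrd27 (r = 0.998), Nhp2 (0.996), Qars (0.995), Polr2l (0.994) and Ddx27 (0.992). These are correlations over 6 points that fall into the 2 groups, and they describe a pattern. Ankrd27 had 73.6, 79.4 and 85.3 CPM in palmitate libraries and 102.2, 100.3 and 102.5 CPM in control libraries. Of the members, Idh3b ran closest to their own mean (r = 0.97), and Idh3g ran against it (r = −0.37). The other members lay between 0.70 and 0.96. Each member is itself part of that mean, so its r is not independent of its own values.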

How the data were processed

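Total RNA was column-purified and made into SMARTER libraries, per the labels' protocols. Tools in the submitters' processing notes are Salmon 1.10.0, Trim Galore 0.6.10 and DESeq 1.42.0, with the build GRCm39. Neither the strand setting nor the link from transcripts to genes is given in the sources used here. A gene matrix of estimated counts in whole numbers was deposited by the authors, with a Salmon table of expected counts and TPM per transcript for every library. No matrix column was left unused (0), and 0 rows named no gene.

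Transcripts were joined to genes through GENCODE M21 (GRCm38), an earlier build than the submitters'; 114857 of 116224 matched, with 99.45% to 99.49% of the reads, and 29134 of 29370 matrix genes had a symbol. Coordinates and exon sequences come from that build, where all 59 member transcripts have the same length as in the deposited tables. The matrix equalled the transcript sum within 1.5 reads for 23526 of 29131 genes.

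The test on counts was that of edgeR 4.0.16 in R 4.3.3 (TMM scaling, filterByExpr, robust quasi-likelihood fit, two-sided, Benjamini-Hochberg adjusted over all features tested, threshold 0.05), with all 6 libraries and the group as the single term. Expected counts of transcripts, and their sums per gene, were rounded first; the sums were made the basis of tests on single members after the data were seen, since the matrix lacks most Idh3a reads. CPM are edgeR's, on TMM-scaled library sizes. Alternatives included DESeq2 1.42.0 and limma-voom 3.58.1. The code was tested on simulated data.

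The members and lists were chosen with earlier results of these data known. Named were the 9 members, transcripts with 5% or more of a gene's reads, listed genes called by the test (some genes that this rule selects are not reported here), and the 5 genes most like the members' mean. Deviations from the group means were weakly correlated between same-numbered libraries (r = 0.13 to 0.23, different numbers −0.18 to 0.06). The labels state no pairing, and whether the numbers pair the libraries was not tested. The block moved no member's call. Replicates differed by more than sampling noise (chi-square per gene 11.5 to 37.6). Nothing in the labels ties a library to an animal or culture of its own, so p-values reflect the variation among libraries, possibly technical.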

Additional observations from a re-analysis of the deposited data

How the results depend on the processing

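The falls of Idh3a and Dlst in transcript sums, and that of Slc25a13, were kept in every fit run, and each other named call was lost under at least 1 setting. Upper-quartile scaling left 2 cycle genes called in the matrix, against 4. Of the other cycle and feeder genes, 9 were called, 14 with DESeq2 and 15 with the replicate block. The block called 5065 genes in transcript sums, against 3371, and in the matrix 3993, against 2759, and it changed no member's call. Transcripts of these genes called were 0, but 1 of 21 at a minimum mean of 5 CPM, against 1107 of all 15453. With DESeq2 they were 6 of 28, against 2948 of all 24190. In fits that each left out 1 library, the count of all genes called was 690 to 3433 in the matrix and 1305 to 4181 in transcript sums, that of cycle genes 0 to 3 and 3 to 5, and that of the other list 1 to 12, with the lowest of each without control library 3. Some transcripts had few reads in palmitate library 3, the library with the fewest counts: Idh3b-204 had 145 and Sucla2-201 had 155. Sucla2-201 had 159 in control library 3, which was deeper. Idh3a-203 had 0 reads in palmitate library 3, at 16724588 matrix counts, and 365 in palmitate library 1, at 23843158. The cause of that 0 was not tested.

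Values close to 0 changed sign under some settings, and the cause was not tested. On the log2 scale, transcript Idh3g-201 (−0.016) was 0.066 and Mdh2-201 (−0.039) was 0.040 at a minimum of 5 CPM. Sucla2-201 (0.0053) was −0.031 with RLE scaling, −0.020 with no filter and −0.048 with DESeq2. With 1 library left out they ran from −0.046 to 0.0026, −0.21 to 0.066 and −0.36 to 0.41, in that order. The difference in share of reads, palmitate minus control in percentage points, was −0.42 for Ogdh-202 by TPM, against 0.15 by reads. With 1 library left out these differences ran over 0 for Cs-201 (−0.043 to 0.25), Idh3a-205 (−0.11 to 2.15), Idh3a-204 (−5.10 to 2.15), Idh3a-203 (−4.37 to 1.00), Idh3b-201 (−1.23 to 1.51), Idh3b-204 (−1.38 to 0.094), Ogdh-201 (−2.56 to 0.99), Ogdh-202 (−1.47 to 1.97), Dlst-201 (−2.80 to 0.89), Dlst-211 (−0.27 to 2.98), Sucla2-201 (−0.088 to 4.56), Sucla2-203 (−4.82 to 0.014), Mdh2-201 (−0.64 to 4.01) and Mdh2-203 (−3.93 to 0.079).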
